A study of Mus musculus with 4 samples.

Results

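The TGF-beta genes described here are 9 of the 31053 genes in the deposited matrices: the ligand genes Tgfb1, Tgfb2, Tgfb3 and Inhba, the matrix gene Ltbp2, the receptor genes Tgfbr1, Tgfbr2 and Tgfbr3, and the target gene Tgfbi. They were picked by symbol as members of the pathway, and all 9 were found and had transcripts in every library. The 4 libraries were made from pancreata of wild-type (WT) C57BL/6 mice, 1 library per group. Caerulein, an analogue of cholecystokinin that overstimulates acinar cells and brings on acute pancreatitis, was followed by 2 days (C2D) or 6 weeks (C6W) of recovery, and saline was given to the matching controls (S2D and S6W). Cells that excluded the dye DAPI, and so had intact membranes, were sorted and run on the 10x 3' assay, which counts each captured transcript once as a UMI. The labels give neither the age or sex of the mice nor how many were pooled. With 1 library per group, no difference could be tested against the spread between animals, and every interval below (exact, 95%) covers counting error only.

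TGF-beta is secreted in a latent form, bound to its own propeptide and to matrix-anchored binding proteins, and must be released before it can act. Active ligand joins a type II receptor (encoded by Tgfbr2) to a type I receptor (Tgfbr1), which then phosphorylates SMAD2 and SMAD3; these enter the nucleus with SMAD4. In the injured pancreas the pathway is best known for turning stromal cells into matrix-producing myofibroblasts and for restraining epithelial growth and inflammation.

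The libraries held 5433 (C2D), 5316 (S2D), 4195 (C6W) and 2623 (S6W) barcodes. After filtering, 4637, 3308, 2741 and 2017 cells were analysed, in the same order; their median depths were 14051, 8323.5, 10541 and 10341 UMIs. Of the 32 clusters, 31 were named from marker genes and 1, led by Krt8, Try5, Krt18 and Clu, was left unnamed; names mean marker-like and not lineage. The doublet caller Scrublet marked 0.408% of C2D cells, too few for a library of that size, so doublets were also removed by an expected rate. Between 0 and 10 analysed barcodes were shared by any pair of libraries. Free RNA was present: T-like and B-like cells carried a mean of 58.9 (C2D), 195 (S2D), 98.9 (C6W) and 118 (S6W) UMIs of digestive enzymes. Scaled up by each library's own profile this gave the UMIs of a gene expected from free RNA, an estimate that ran high (B-like cells of S2D had 3 Tgfb2 UMIs where 46.7 were expected). In C2D most macrophage-like, acinar-like, fibroblast-like and ductal-like cells lay in clusters that had at least 90% of their cells from that library. With 1 library per group, injury and library cannot be told apart in any class.

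Over whole libraries, as CPM (UMIs scaled to a total of 1e+06) of all analysed cells, Tgfbi stood at 479 in C2D, 25.1 in S2D, 57.2 in C6W and 54.5 in S6W. Tgfb1 stood at 186, 70.1, 64.1 and 59.6 CPM in the same order. Tgfb3 was at 45.1, 14.3, 23.7 and 14.0 CPM, Inhba at 9.13, 4.88, 5.10 and 3.47, and Ltbp2 at 3.99, 0.294, 1.30 and 0.193. Tgfbr1 followed with 71.7, 24.8, 41.6 and 34.1 CPM, and Tgfbr2 with 112, 73.9, 116 and 93.5. Tgfb2 and Tgfbr3 had their lowest levels in C2D, with 22.3, 52.4, 61.5 and 46.9 CPM for Tgfb2 and 19.5, 52.0, 76.8 and 69.7 CPM for Tgfbr3. These library levels mix the level in each cell class with the make-up of the sorted suspension, in which macrophage-like cells were 51.2% of C2D cells and 2.57% of S2D cells. The levels are therefore given by cell class from here on, as CPM of all UMIs of that class in that library.

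**Figure D1:**
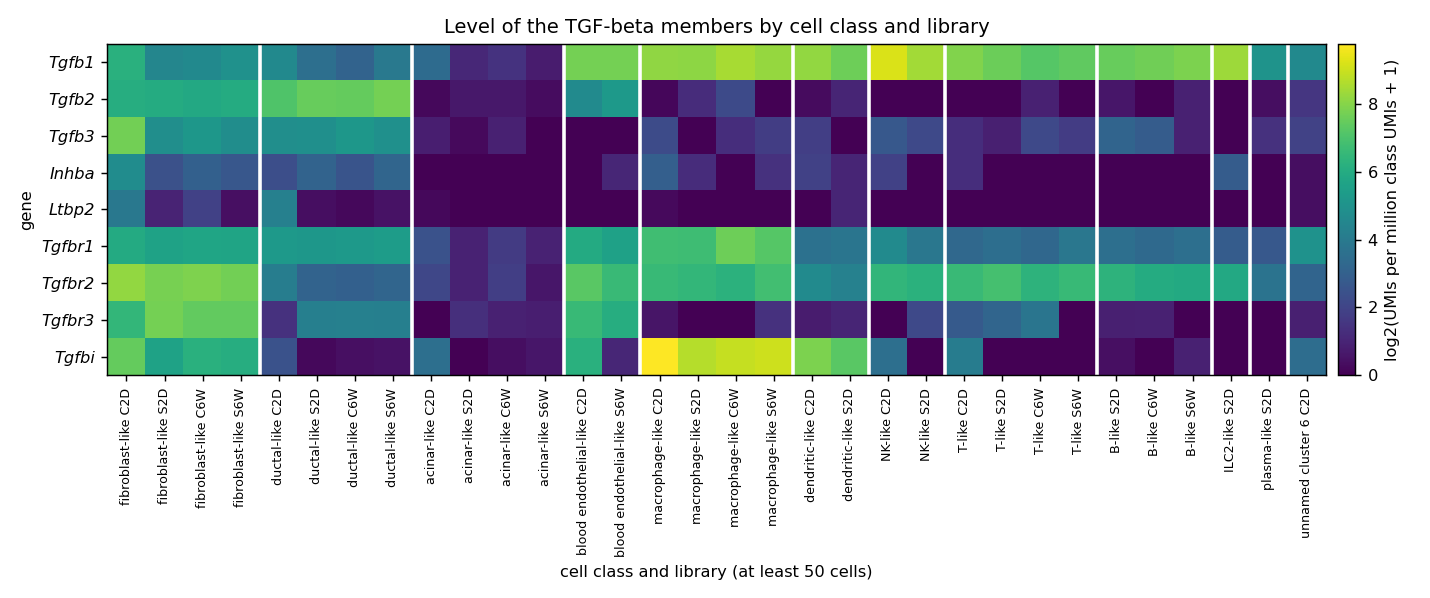
Level of each of the 9 genes (rows) in every cell class and library with at least 50 cells (columns), as log2(CPM + 1). Tgfb1 and Tgfbi are brightest in immune classes, Tgfb2 in ductal-like cells, and Tgfb3, Tgfbr2 and Tgfbr3 in fibroblast-like cells.

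A class was called a sender of a ligand in a library where its level was at least 2 times that of the median class, with at least 20 UMIs. Tgfb1, the broadly made ligand of immune cells (ENSMUSG00000002603, chr7:25687002-25705077, plus strand, GRCm38), was found in every leukocyte class compared. In macrophage-like cells, which here include monocyte-like cells, it stood at 280.0 CPM in C2D, 274 in S2D, 357 in C6W and 302 in S6W. NK-like cells had the highest level in C2D, 601 CPM (524.5 to 686), and 339 CPM in S2D, where their interval overlapped that of ILC2-like cells at 320.4 CPM. Dendritic-like and T-like cells in C2D, at 291 and 242 CPM, had intervals that ran into that of macrophage-like cells. The sender rule picked NK-like cells in C2D, macrophage-like and B-like cells in C6W, and no class in S2D or S6W. The median class stood at 214 CPM in C2D, 185 in S2D, 84.3 in C6W and 166 in S6W, over 9, 10, 6 and 7 classes.

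What differed more was which class held the Tgfb1 transcripts. Macrophage-like cells gave 73.3% of the Tgfb1 UMIs of C2D and 8.61% of those of S2D, at nearly the same CPM. B-like cells gave 45.8% in S2D, 22.5% in C6W and 17.3% in S6W. At 6 weeks macrophage-like cells gave 24.5% of the UMIs in both C6W and S6W. What dissociation and sorting add to these shares was not tested.

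Tgfb2 (ENSMUSG00000039239, chr1:186622792-186705989, minus strand), the isoform known for epithelial and developmental roles, had the same 2 leading classes in every library. Ductal-like cells led with 133 CPM in C2D, 181 in S2D, 176 in C6W and 212 in S6W. Fibroblast-like cells followed with 67.3, 63.6, 58.8 and 64.1 CPM. The intervals of these classes did not overlap in any library. Blood endothelial-like cells were a further sender in C2D (24.8 CPM) and S6W (38.2 CPM), the libraries with at least 50 of these cells. In NK-like, T-like and macrophage-like cells Tgfb2 ranged from 0 to 5 UMIs per library.

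Tgfb3 (ENSMUSG00000021253, chr12:86056745-86079041, minus strand), an isoform of mesenchymal cells, had fibroblast-like and ductal-like cells as senders in every library. In S2D, C6W and S6W the levels of fibroblast-like cells (27.6, 35.4 and 26.8 CPM) and ductal-like cells (28.0, 35.2 and 29.1 CPM) had overlapping intervals. In C2D fibroblast-like cells stood at 207 CPM (199 to 215) and ductal-like cells at 27.3 CPM (22.5 to 32.7). Fibroblast-like cells gave 90.5% of the Tgfb3 UMIs of C2D, 41.9% of those of S2D, 62.9% in C6W and 72.7% in S6W. B-like cells were a further sender in S2D, with 48 UMIs in 41 of 753 cells (7.96 CPM).

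Inhba (ENSMUSG00000041324, chr13:16011851-16031621, plus strand) encodes the chain that forms activin A, a ligand that signals through the same SMADs by its own receptors. Fibroblast-like cells had 25.8 CPM in C2D, 4.32 in S2D, 6.99 in C6W and 5.31 in S6W, and ductal-like cells had 4.03, 7.58, 4.80 and 8.20. Both were senders in S2D, C6W and S6W. The senders in C2D were fibroblast-like and macrophage-like cells (228 UMIs, 6.75 CPM). Ductal-like cells of C2D, with 17 UMIs at 1.47 times the level of the median class, missed both parts of the rule. In C2D the interval of fibroblast-like cells (23.2 to 28.7 CPM) lay above those of all other classes of at least 50 cells. Mural-like cells, the contractile cells around vessels, numbered only 24, 23, 18 and 17. They had 34.1 CPM of Inhba in C2D (10 UMIs, 16.3 to 62.7), 299.7 in S2D (67 UMIs, 232 to 381), 118 in C6W (21 UMIs) and 116 in S6W (15 UMIs). The 23 mural-like cells of S2D thus held 40.4% of all Inhba UMIs of that library, and the 24 of C2D held 1.58%.

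**Figure D2:**
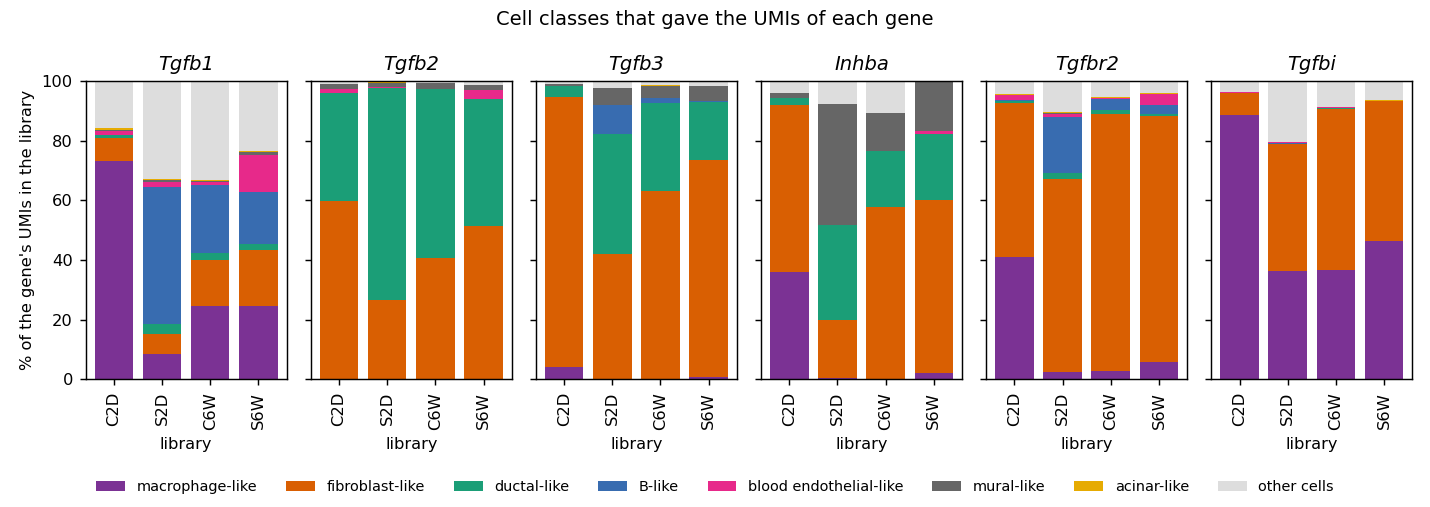
Share of each gene's UMIs (vertical axis, in % of the library) that came from each cell class, by library (horizontal axis). Macrophage-like cells gave 73.3% of Tgfb1 UMIs in C2D and 8.61% in S2D; fibroblast-like cells gave 90.5% of Tgfb3 UMIs in C2D; mural-like cells gave 40.4% of Inhba UMIs in S2D.

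Receiver classes had at least 2 times the level of the median class for Tgfbr1 or Tgfbr2 and were not below the median for the other. By this rule macrophage-like and fibroblast-like cells were receivers in all 4 libraries, and no other class was in any. Blood endothelial-like cells of C2D fell just short, with Tgfbr1 at 61.3 CPM, 1.99 times the median class. Fibroblast-like cells there were at 2.01 times, with an overlapping interval. The Tgfbr2 of these endothelial-like cells stood at 155 CPM (129 to 183), above that of macrophage-like cells. In S6W blood endothelial-like cells had 46.9 CPM of Tgfbr1 and 98.2 CPM of Tgfbr2. The receiver classes differed in which receptor was high. Tgfbr1, the type I receptor kinase (ENSMUSG00000007613, chr4:47353222-47414931, plus strand), was highest in macrophage-like cells, at 108 CPM in C2D, 106 in S2D, 193 in C6W and 147 in S6W. In fibroblast-like cells it stood at 61.9, 48.1, 52.5 and 51.2 CPM, and in ductal-like cells at 37.5, 34.9, 37.6 and 41.4 CPM.

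Tgfbr2, the type II receptor that binds the ligand first (ENSMUSG00000032440, chr9:116084293-116175360, minus strand), was highest in fibroblast-like cells, at 294 CPM in C2D, 219 in S2D, 237 in C6W and 204 in S6W. Macrophage-like cells had 94.5, 86.9, 76.3 and 112 CPM, with intervals that overlapped those of T-like cells (97.7, 116, 78.5 and 94.5 CPM) in each library. Ductal-like cells, which carried Tgfbr1 at moderate levels, had little Tgfbr2: 16.8 CPM in C2D, 7.58 in S2D, 6.88 in C6W and 8.20 in S6W. Tgfbr3 encodes betaglycan, a co-receptor that presents TGF-beta2 and also binds inhibin (ENSMUSG00000029287, chr5:107106570-107289629, minus strand). Fibroblast-like cells had 88.7 CPM in C2D, 211 in S2D, 170.2 in C6W and 171 in S6W, and held between 88.5 and 93.4% of its UMIs in each library. Blood endothelial-like cells had 94.4 CPM in C2D and 66.6 CPM in S6W. In C2D their interval overlapped that of fibroblast-like cells.

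Ltbp2 (ENSMUSG00000002020, chr12:84783212-84876532, minus strand) belongs to the latent TGF-beta binding protein family but attaches to fibrillin fibres and not to latent TGF-beta. It was rare outside C2D. Fibroblast-like cells had 193 UMIs in C2D, 7 in S2D, 36 in C6W and 3 in S6W, and ductal-like cells had 76, 2, 1 and 1. In C2D this was 14.1 CPM in fibroblast-like and 18.0 CPM in ductal-like cells, with overlapping intervals (12.2 to 16.2 and 14.2 to 22.6). Tgfbi (ENSMUSG00000035493, chr13:56609523-56639562, plus strand), a secreted matrix protein named for its induction by TGF-beta, was led by macrophage-like cells with 873 CPM in C2D, 415 in S2D, 476 in C6W and 522 in S6W. Dendritic-like cells followed in C2D and S2D, where at least 50 were found, with 230.3 and 153 CPM. Fibroblast-like cells had 174, 49.2, 73.4 and 67.7 CPM.

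The question of the 2-day comparison was which of these genes differed between C2D and S2D within a class. Log2 ratios were scaled by TMM, a factor that sets the bulk of genes to no change, and a gene counted as higher or lower at 2-fold (log2 of 1) with at least 20 UMIs over both libraries. Over 7 classes, 36 gene and class pairs could be compared, of which 13 were higher and 2 lower in C2D; over the same classes between 3.61 and 20.3% of all genes were higher and between 5.29 and 10.7% lower. Of the 13 and 2, 9 and 2 were in fibroblast-like and ductal-like cells. In 3 of the 13 (Tgfb1 and Tgfbi in acinar-like cells and Tgfbi in ductal-like cells) the C2D UMIs were no more than expected from free RNA.

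In fibroblast-like cells (586 in C2D, 685 in S2D) 5 of the 9 genes were higher and 1 was lower, where 12.3% of 12583 genes were higher and 8.26% lower. The ligand Tgfb3 had 2835 UMIs in C2D and 204 in S2D, a log2 ratio of 3.02 (2.82 to 3.23) or 8.12-fold. At least 1 Tgfb3 UMI was found in 79.9% of C2D and 22.5% of S2D fibroblast-like cells; with each cell thinned to 1000 UMIs these were 13.7 and 2.49%. In T-like cells, which should lack the gene, the shares were 1.01 and 0.546%, at a median of 5375 and 6060 UMIs against 22576.5 and 10814 in fibroblast-like cells. Inhba had 354 UMIs in C2D and 32 in S2D (log2 ratio 2.69, 2.17 to 3.26). Tgfb1 had 992 UMIs in C2D and 160 in S2D (1.86, 1.62 to 2.11). The remaining TGF-beta ligand, Tgfb2, was within 2-fold, with 922 UMIs in C2D and 471 in S2D (0.19, 0.03 to 0.36).

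Ltbp2 had the largest ratio of the 9 in fibroblast-like cells, 4.01 (2.94 to 5.34). Its 193 UMIs in C2D lay in 48 of 586 cells, and its 7 UMIs in S2D in 2 of 685. Acta2, the smooth muscle actin of myofibroblasts, had a UMI in 42 of these 48 C2D cells and in 221 of the other 538, and the 48 were deeper (a median of 32520.5 against 22244.5 UMIs), so how far depth set this overlap was not tested. Tgfbi had 2388 UMIs in C2D and 364 in S2D (1.94, 1.78 to 2.10). The 2 signalling receptors stayed under 2-fold, with log2 ratios of 0.48 (0.30 to 0.66) for Tgfbr1 and 0.54 (0.46 to 0.62) for Tgfbr2. The co-receptor Tgfbr3 was lower, with 1215 UMIs in C2D and 1563 in S2D (-1.14, -1.25 to -1.03).

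Of the fibroblast-like cells, 91.5% of those in C2D were in cluster 5 and 30.8, 22.8 and 41.8% of those in S2D in clusters 13, 21 and 25, so the comparison is largely one between clusters. Without clusters that came almost wholly from 1 library, Tgfb3 and Tgfb1 no longer passed 2-fold (0.99 and 0.88). The call of Ltbp2 was lost as well, since 192 of its 193 C2D UMIs lay in cluster 5. Inhba and Tgfbi then stood at 3.50 and 3.22, but the cells left differed in make-up. Those of C2D were 27 in cluster 15, 8 each in clusters 13 and 25, and 7 in cluster 21. Cluster 15 held only 4.23% of S2D fibroblast-like cells. Inside cluster 15 the Inhba intervals of C2D and S2D overlapped (56.8 to 109 and 33.8 to 87.6 CPM). Those of Tgfbi just overlapped (624 to 775 and 467 to 627 CPM). The part of make-up in both ratios was not tested. With thinned cells the Tgfbr3 ratio was -0.63 and that of Inhba 3.54. Macrophage markers moved with the library: 11 of 12 had UMIs in C2D, with Ly6c2 at 0, and 11 of 12 in S2D, with Fcgr1 at 0, and without Apoe they summed to 666 CPM in C2D and 21.5 CPM in S2D. The macrophage gene Lyz2 was at 390 CPM in C2D and 4.05 CPM in S2D. Per 100 Lyz2 UMIs, C2D fibroblast-like cells had 44.7 Tgfbi UMIs (42.6 to 46.9) and 18.6 Tgfb1 UMIs (17.3 to 19.9), where C2D macrophage-like cells had 4.38 (4.33 to 4.43) and 1.40 (1.38 to 1.43). The part of macrophage RNA in these ratios was not tested.

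**Figure D3:**
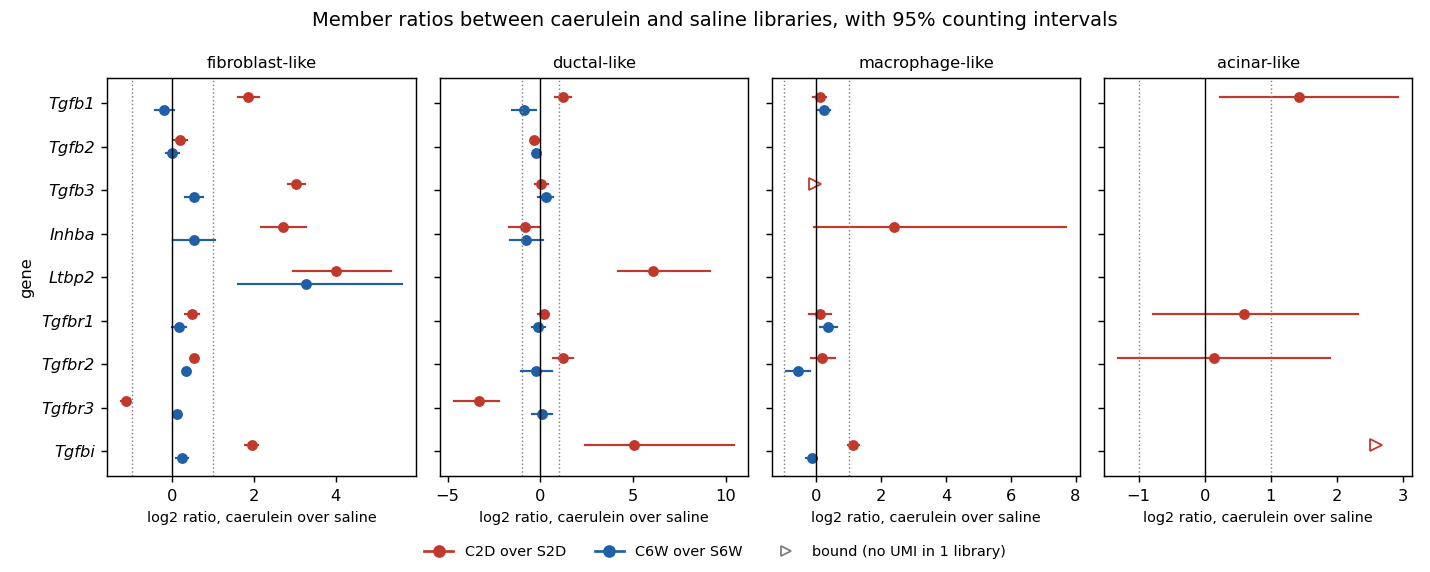
Log2 ratio of caerulein over saline (horizontal axis) for each gene (vertical axis) in 4 cell classes at 2 days (red, C2D over S2D) and 6 weeks (blue, C6W over S6W), with 95% counting intervals; open triangles are bounds where 1 library had no UMI, and dotted lines mark 2-fold. The 2-day points of fibroblast-like cells reach 4.01 for Ltbp2, and all 6-week points but Ltbp2 lie within 2-fold.

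The stretches upstream of Ltbp2, Tgfbi and Tgfb1 are shown because these were the 3 genes counted as higher both in fibroblast-like and in ductal-like cells of C2D. Of these calls, that of Tgfbi in ductal-like cells had no more UMIs than expected from free RNA and is not read as expression. Each runs from 250 to 51 bases before the RefSeq start (GRCm38.p6), 5′ to 3′ on the strand of the gene, and capitals mark CAGAC or its reverse complement GTCTG, the SMAD box to which SMAD3 and SMAD4 can bind.
Ltbp2: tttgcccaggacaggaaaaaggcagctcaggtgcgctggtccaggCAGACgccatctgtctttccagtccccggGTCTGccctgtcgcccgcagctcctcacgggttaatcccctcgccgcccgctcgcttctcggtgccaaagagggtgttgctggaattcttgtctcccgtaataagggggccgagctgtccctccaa
Tgfbi: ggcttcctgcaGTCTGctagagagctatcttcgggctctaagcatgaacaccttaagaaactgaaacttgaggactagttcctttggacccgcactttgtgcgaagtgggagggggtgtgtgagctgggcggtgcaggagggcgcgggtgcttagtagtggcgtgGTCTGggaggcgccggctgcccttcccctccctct
Tgfb1: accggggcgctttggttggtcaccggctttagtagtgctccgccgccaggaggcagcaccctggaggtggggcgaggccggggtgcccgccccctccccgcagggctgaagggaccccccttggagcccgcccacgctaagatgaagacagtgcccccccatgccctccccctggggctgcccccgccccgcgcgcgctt
The first is chr12:84876542-84876741 on the minus strand, the second chr13:56609336-56609535 on the plus strand and the third chr7:25686752-25686951 on the plus strand. The Ltbp2 and Tgfbi windows held 2 SMAD boxes each and that of Tgfb1 none, and 35.8% of all 32851 such windows in the table held at least 1, so these letters are common. Of the 7 genes with an entry (8 windows, with 2 for Tgfbr1), Tgfb2 had 2 boxes, Tgfbr2 had 1 and the second Tgfbr1 window had 1. The Inhba window had none. TGANTCA, the AP-1 site, was in 5.57% of all windows and in none of the 8. A match is a description of letters and not of binding.

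In ductal-like cells (175 in C2D, 771 in S2D) 4 of 9 genes were higher and 1 was lower in C2D, where 8.59% of 11951 genes were higher and 8.53% lower. Ltbp2 had 76 UMIs in C2D and 2 in S2D (log2 ratio 6.06, 4.16 to 9.13). A UMI was found in 27 of 175 C2D cells, 15.4%, against 0.211% of C2D macrophage-like cells (median depths of 20500 and 14281.5 UMIs) and 0.259% of S2D ductal-like cells. All 27 had UMIs of Krt19, Epcam and Sox9, which mark ducts, none had Pdgfra or Acta2, and 5 had a Col1a1 UMI. The stromal gene Dcn had a UMI in 8 of the 27 and in 21 of the 148 cells without Ltbp2, and the mural marker Rgs5 in 24 and in 121. The mesothelial marker Msln had a UMI in 6 and in 4. The part of these other cell types in the Ltbp2 level was not tested. The receptor Tgfbr2 had 71 UMIs in C2D and 53 in S2D (1.24, 0.70 to 1.78). Free RNA was expected to give 15.2 and 65.0 of these, more than were found in S2D. This estimate ran high, as S2D B-like cells had 5 Tgfbr3 UMIs where 44.6 were expected. It therefore cannot show whether the S2D UMIs are expression, and the S2D level is not read as such. With free RNA subtracted no S2D UMI was left and the ratio was a bound of 4.96, whose size rests on that estimate. Tgfbr3 had 7 and 124 UMIs (-3.33, -4.68 to -2.25). The type I receptor was within 2-fold (0.19, -0.11 to 0.48).

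Among the ligands of ductal-like cells, Tgfb1 had 101 UMIs in C2D and 77 in S2D (1.21, 0.76 to 1.65). Free RNA was expected to give 25.5 and 62.0 of these. With these subtracted the ratio was 3.06 (2.25 to 3.97), a size that rests on an estimate that ran high. Tgfb2, the main ligand of ductal-like cells, had 561 and 1267 (-0.36, -0.51 to -0.22), and Tgfb3 had 115 and 196 (0.04, -0.30 to 0.38). Inhba had 17 and 53 UMIs (-0.83, -1.71 to -0.02). Tgfbi had 19 UMIs in C2D, 7 of them in 1 cell, and 1 in S2D (5.06, 2.41 to 10.44), and without that cell too few UMIs were left for a call. Free RNA was expected to give 65.1 and 22.1 Tgfbi UMIs, more than were found, and the 99 T-like cells of C2D held 11, so Tgfbi is not read as expressed in ductal-like cells. Lyz2 stood at 278 CPM in C2D and 2.29 CPM in S2D ductal-like cells, and macrophage markers without Apoe summed to 394 and 30.2 CPM (11 of 12 detected in C2D, with Ly6c2 at 0, and 10 of 12 in S2D, with Adgre1 and Fcgr1 at 0). Per 100 Lyz2 UMIs the C2D ductal-like cells had 1.62 Tgfbi UMIs (0.973 to 2.55) and 8.63 Tgfb1 UMIs (6.97 to 10.6), to be set against 4.38 and 1.40 in macrophage-like cells; the part of macrophage RNA in both ratios was not tested. Cluster 16 held 93.7% of C2D ductal-like cells and 0.649% of S2D ones.

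In macrophage-like cells (2372 in C2D, 85 in S2D) 2 of the 6 genes compared were higher and none was lower, where 11.2% of 11633 genes were higher and 10.3% lower. Tgfbi had 29487 UMIs in C2D and 310 in S2D (1.14, 0.98 to 1.31), and its ratio was 0.95 once free RNA was subtracted. Inhba had 228 UMIs in 113 C2D cells and 1 in S2D; the ratio of 2.40 had an interval of -0.09 to 7.71, and with called doublets kept, which left no UMI in S2D, it was a bound of 0.67. The ratios of Tgfb1 (0.10, -0.10 to 0.30), Tgfbr1 (0.09, -0.23 to 0.43) and Tgfbr2 (0.19, -0.17 to 0.56) lay close to 0. Tgfb3 had 125 UMIs in C2D and none in S2D, which allows no call at this depth. Fibroblast markers in macrophage-like cells summed to 86.6 CPM in C2D (9 of 9 with a UMI) and 32.1 CPM in S2D (5 of 9, with Col1a1, Col3a1, Pdgfra and Mfap5 at 0). For each 100 Tgfb3 UMIs there were 182 Inhba UMIs (146 to 229) in C2D macrophage-like cells and 12.5 (11.1 to 14.0) in C2D fibroblast-like cells.

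The C2D macrophage-like cells lay mainly in 2 clusters. Cluster 2, with Il1b, Cd14 and Ccl9 among its leading genes, had 1384 CPM of Tgfbi, 325.5 of Tgfb1 and 11.7 of Inhba. Cluster 1, with Pf4 and Wfdc17, had 509, 249.6 and 3.44 CPM. The receptors were closer, with 124 and 98.7 CPM of Tgfbr1 and 90.01 and 99.9 CPM of Tgfbr2. Most S2D, C6W and S6W cells were in cluster 19, where Tgfbi stood at 473, 593 and 539 CPM, Inhba had at most 1 UMI per library, and Tgfbr1 stood at 153, 293 and 149.5 CPM.

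In acinar-like cells (483 in C2D, 414 in S2D) 2 of 4 genes compared were higher, where 20.3% of 7446 genes were higher and 10.7% lower. Tgfb1 had 62 UMIs in C2D and 6 in S2D (1.44, 0.23 to 2.94). Tgfbi had 69 UMIs in C2D and none in S2D, at least 6.02-fold higher against a floor of 3 counts over the group; 42 of the 69 lay in 1 cell, and without it the bound was 1.24 on the log2 scale. Free RNA was expected to give 70.5 Tgfb1 and 180 Tgfbi UMIs in C2D, and 33.3 and 11.9 in S2D, more than were found of either gene in either library. As this estimate ran high, it cannot show whether these UMIs are expression, and neither gene is read as expressed in acinar-like cells. With free RNA subtracted no member had enough UMIs to be compared. The Tgfbi bound was also 1.30 at up to 10% mitochondrial UMIs and 1.79 with doublets kept. Macrophage markers moved with both, with 12 of 12 detected in C2D and 9 of 12 in S2D, and sums without Apoe of 248 and 6.63 CPM (Mrc1, Ccr2 and Fcgr1 at 0). Per 100 Lyz2 UMIs there were 8.53 Tgfbi UMIs (6.57 to 10.9) and 7.66 Tgfb1 UMIs (5.82 to 9.93), and their source was not tested. Scaling matters in this class, since the median of all genes was 1.88 on plain CPM and 0.19 under TMM; on plain CPM Tgfb1 stood at 3.13 and the Tgfbi bound at 4.28, and Tgfbr1 and Tgfbr2 passed 2-fold as well.

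The other classes gave no call at 2 days. Tgfb1 had log2 ratios of 0.90 (0.55 to 1.26) in NK-like cells, 0.73 (0.51 to 0.95) in dendritic-like cells and 0.31 (0.01 to 0.60) in T-like cells. The background of genes higher or lower was 5.44 and 5.29% in NK-like cells, 7.57 and 5.39% in dendritic-like cells, and 3.61 and 6.5% in T-like cells. Tgfbi in dendritic-like cells had 1010 UMIs in C2D and 154 in S2D (0.76, 0.51 to 1.01).

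At 6 weeks the question was whether these genes still differed between C6W and S6W. Of 25 gene and class pairs in 5 classes, 1 was higher and none lower. In fibroblast-like cells (1110 in C6W, 741 in S6W), 1 of 9 genes was higher, where 2.03% of 12313 genes were higher and 1.65% lower. It was Ltbp2, with 36 UMIs in C6W and 3 in S6W (log2 ratio 3.27, 1.61 to 5.61). It was found in 4 of 1110 C6W cells and 2 of 741 S6W cells, and 32 of the 36 UMIs lay in 1 cell; without that cell the ratio was 0.10 on 4 UMIs in C6W and 3 in S6W, below the minimum for a call. Of the 36, 34 lay in 2 of the 14 C6W cells that fell in cluster 5, the cluster that held 91.5% of C2D fibroblast-like cells.

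Those 14 cells had 103 CPM of Tgfb3 (68.9 to 148), 163 of Tgfb1 (120 to 218) and 178 of Tgfbi (132 to 234). The other 1096 C6W fibroblast-like cells had 33.9 (30.8 to 37.3), 20.7 (18.3 to 23.3) and 71.1 (66.6 to 75.8). Tgfbr3 ran the other way, at 117 (80.6 to 165) and 171 CPM (164 to 179), with intervals that just overlapped. This contrast between clusters is a description. The number of such cells was 14 in C6W and 5 in S6W, 1.26 and 0.675% of the class.

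For the class as a whole the 6-week ratios of Tgfb3 and Inhba were both 0.52, with intervals of 0.30 to 0.75 and 0.02 to 1.04. Tgfb3 had 471 UMIs in C6W and 263 in S6W. That of Tgfbr2 was 0.34 (0.26 to 0.42) and that of Tgfbi 0.24 (0.10 to 0.39). Tgfb1 had a ratio of -0.20 (-0.43 to 0.04) and Tgfb2, with 782 UMIs in C6W and 628 in S6W, an interval of -0.15 to 0.15. With S2D in place of S6W as the control, Ltbp2 stood at 1.62, Tgfb3 stood at 0.47 and Inhba at 0.80, but Tgfb1 turned to 0.24 and Tgfbr3, at 0.11 with S6W, to -0.21.

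The other classes had no gene past 2-fold at 6 weeks. In ductal-like cells (554 in C6W, 220 in S6W) 7 genes were compared, where 2.53% of 11401 genes were higher and 0.719% lower. Tgfb1 had 48 UMIs in C6W and 35 in S6W (-0.89, -1.55 to -0.22), and 9 of the 35 lay in 1 S6W cell. With the 30.8 and 5.58 UMIs expected from free RNA subtracted the ratio was -2.06, past 2-fold, but its size rests on an estimate that ran high. Tgfb2 had 1101 and 517 UMIs (-0.26, -0.41 to -0.10). In macrophage-like cells (119 in C6W, 134 in S6W), against a background of 5.78 and 6.56%, Tgfbr1 had 268 and 185 UMIs (0.37, 0.10 to 0.65) and Tgfbr2 106 and 140 (-0.57, -0.94 to -0.19). Tgfbi, with 661 and 655 UMIs, had a ratio of -0.15 (-0.31 to 0.01). In B-like and T-like cells, with backgrounds of 4.14 and 1.86% and of 6.27 and 3.25%, the ratios ran from -0.23 to 0.11.

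The saline libraries show how far these genes moved with no caerulein. Between S6W and S2D, 1 of 25 pairs passed 2-fold, Tgfb3 in B-like cells, with 1 UMI in 124 S6W cells and 48 UMIs in 753 S2D cells (-3.24, -8.58 to -0.70), where 2.15% of 9025 genes were higher and 8.58% lower. In fibroblast-like cells, against 1.64 and 2.04%, the 8 ratios ran from -0.31 (Tgfbr3) to 0.45 (Tgfbi), and Tgfb1 was at 0.44 (0.16 to 0.73). Tgfb3 there was at -0.05 (-0.32 to 0.22). No member passed 2-fold in ductal-like cells (1.02 and 2.77% of all genes higher and lower), T-like cells (2.8 and 8.1%) or macrophage-like cells (7.86 and 4.51%). The 6-week ratios of 0.52 for Tgfb3 and Inhba in fibroblast-like cells are close in size to the 0.44 and 0.45 of Tgfb1 and Tgfbi between these saline libraries.

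**Figure D4:**
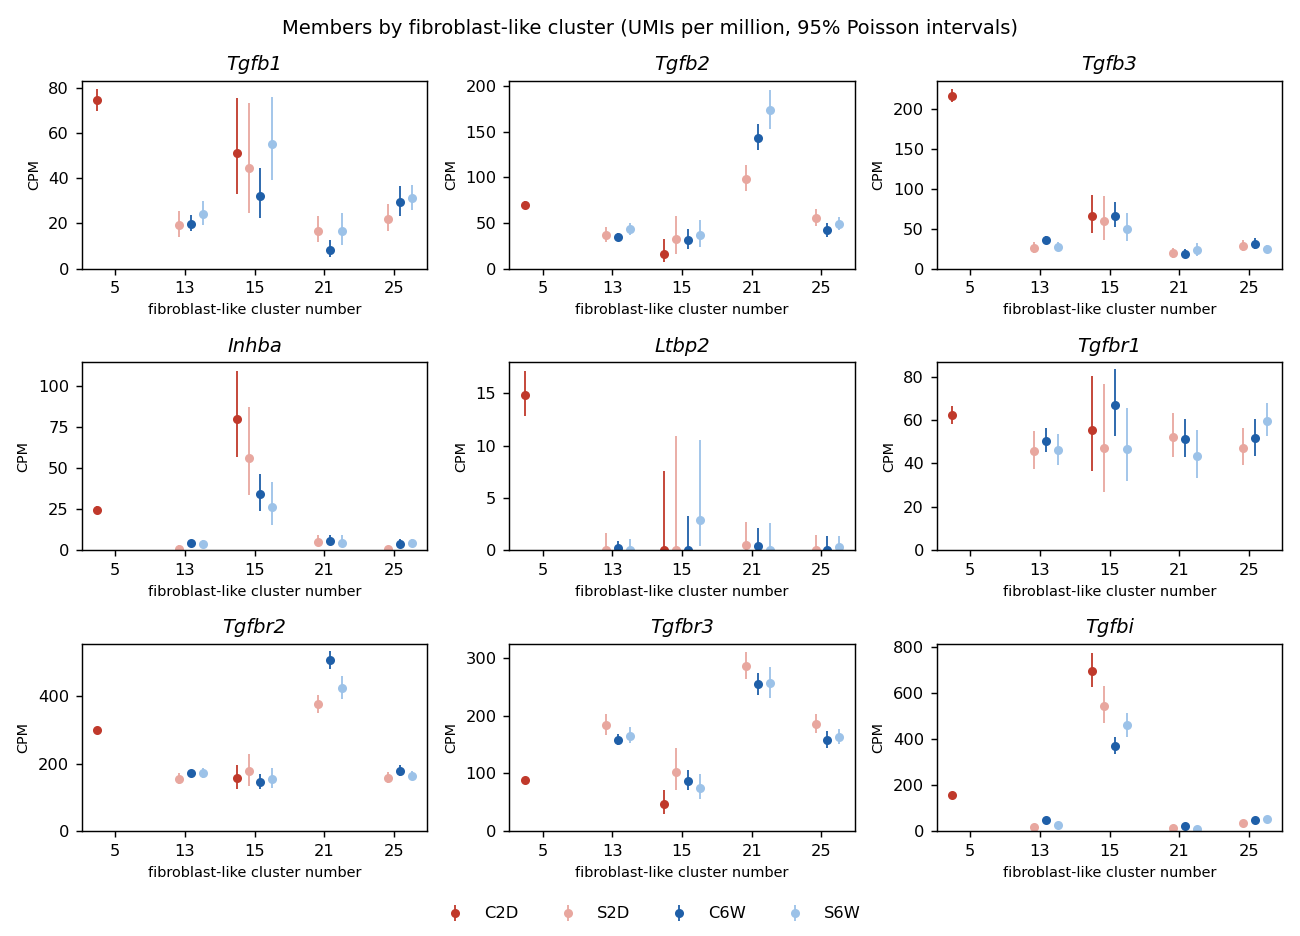
Level of each gene in CPM (vertical axis, from 0) in the fibroblast-like clusters (horizontal axis, by number) with at least 20 cells in a library; points are libraries and bars 95% Poisson intervals. Cluster 21 is highest for Tgfb2, Tgfbr2 and Tgfbr3, cluster 15 for Tgfbi and Inhba, and cluster 5 of C2D for Tgfb3 and Ltbp2.

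Fibroblast-like cells were not uniform in these genes. Cluster 21, with Pi16, Igfbp6 and Dpt among its leading genes, had 98.5 CPM of Tgfb2 in S2D, 143.5 in C6W and 173 in S6W. In clusters 13 and 25, led by Dcn with Smoc2 and Ccl11, Tgfb2 ranged from 34.6 to 55.7 CPM over the same libraries. Tgfbr2 stood at 376, 507 and 424 CPM in cluster 21, against 154.5 to 179 CPM in clusters 13 and 25. Tgfbr3 had 286.5, 254 and 257 CPM in cluster 21, against 158 to 186 CPM. In C2D only 7 cells fell in cluster 21, too few for a level.

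Cluster 15, led by Dcn, Ptn and Col1a1, differed from it and had enough cells in all libraries (27, 29, 87 and 49). Its Tgfbi stood at 696 CPM in C2D, 543 in S2D, 371.5 in C6W and 459 in S6W, above the 157 CPM of cluster 5 in C2D. Its Inhba stood at 79.9, 56.1, 33.9 and 26.2 CPM, where clusters 13, 21 and 25 ranged from 0.381 to 5.33 CPM. Its Tgfb3 was nearly level, at 65.5, 59.0, 66.1 and 49.4 CPM. Tgfb3 of 216 CPM, Tgfb1 of 74.4 CPM and Ltbp2 of 14.9 CPM in cluster 5 of C2D were above those of the 27 cluster 15 cells of the same library (65.5, 51.2 and 0 CPM), though the Tgfb1 intervals overlapped (69.7 to 79.2 and 33.1 to 75.6).

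The ductal-like clusters also split the ligands. Clusters 17 and 29 shared leading genes such as Spp1 and Ces1d, with Ambp and Ttr only in the list of 17 and Dcdc2a and Ankrd1 only in that of 29. Cluster 17 had more Tgfb3 (50.6 CPM in S2D, 65.1 in C6W and 40.8 in S6W) than cluster 29 (19.99, 22.1 and 24.8 CPM). For Tgfb2 the order was turned round, with 121, 105 and 124 CPM in cluster 17 and 199, 205 and 245 CPM in cluster 29. Cluster 16 of C2D had 134 CPM of Tgfb2 and 27.9 CPM of Tgfb3. No test was made between clusters.

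Other genes of the pathway were followed through 8 lists, with 100 genes in all. The lists were chosen with earlier results of these data known, so their shares beside those of all genes are a description and not independent support. In fibroblast-like cells at 2 days, 18 of 26 target genes were higher in C2D and none lower, with a median log2 ratio of 1.82 against 0.04 over all genes, of which 12.3% were higher and 8.26% lower. Adam12, a metalloprotease, had 1129 UMIs in C2D and 11 in S2D (5.91, 5.06 to 6.91). Of 9 feedback genes, which damp the signal, 4 were higher. Pmepa1, which sequesters SMADs, had 4702 UMIs in C2D and 421 in S2D (2.71, 2.56 to 2.85), Tgif1, a co-repressor, 551 and 101 (1.67, 1.36 to 1.99), and the inhibitory Smad7 2069 and 535 (1.18, 1.04 to 1.32). Among the transducers none of 7 was higher, and Smad3 was lower, with 232 and 282 UMIs (-1.06, -1.31 to -0.80).

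Genes that store or release latent TGF-beta moved both ways in these cells, with 6 of 19 higher and 4 lower. The small proteoglycans Fmod (3000 UMIs in C2D and 69 in S2D; 4.67, 4.32 to 5.03) and Bgn (2.95), which bind TGF-beta, and the fibrillin gene Fbn2 (1.89) were higher. The latent binding proteins Ltbp4 (1563 and 5678 UMIs; -2.64, -2.72 to -2.55) and Ltbp1 (-1.79), and the proteoglycan Hspg2 (-1.20), were lower. Thus Ltbp2 and its relatives Ltbp1 and Ltbp4 ran in opposite directions in the same cells. Of 10 other ligands of the superfamily 1 was higher, near the 12.3% of all genes, and 5 were lower, where 8.26% of all genes were, including Inhbb (-2.73), Bmp6 (-2.72) and Bmp2 (-2.34). The activin antagonist Fst, 1 of 3 lower among 7 inhibitors, had 491 UMIs in C2D and 973 in S2D (-1.76, -1.92 to -1.60), beside the higher Inhba.

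**Figure D5:**
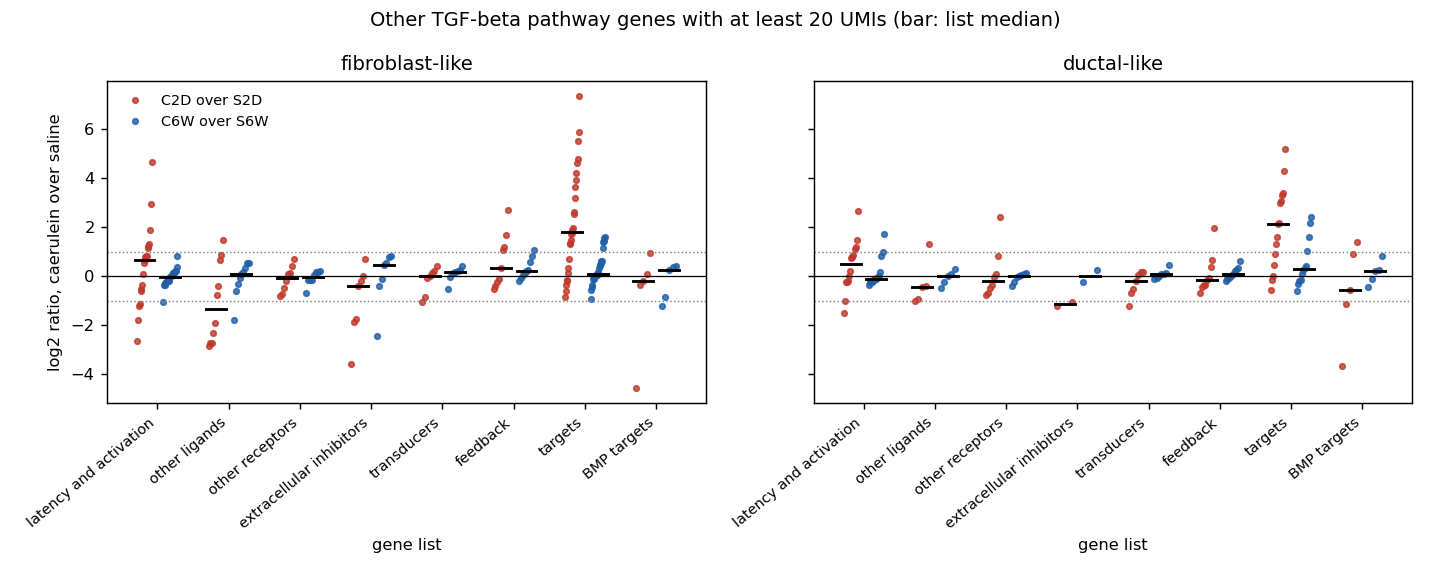
Log2 ratio of caerulein over saline (vertical axis) of each listed pathway gene with at least 20 UMIs, by list (horizontal axis), at 2 days (red, C2D over S2D) and 6 weeks (blue, C6W over S6W); bars are list medians and dotted lines mark 2-fold. The targets have medians of 1.82 and 2.14 at 2 days, and of 0.10 and 0.28 at 6 weeks, in fibroblast-like and ductal-like cells.

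In ductal-like cells at 2 days 10 of 15 targets were higher and none lower, with a median of 2.14 against -0.04 over all genes, of which 8.59% were higher and 8.53% lower. They included Timp1, a metalloprotease inhibitor (222 UMIs in C2D and 20 in S2D; 4.29, 3.62 to 5.03), Tagln (3.38) and the fibronectin gene Fn1 (2.98). Mural markers summed to 353 CPM in C2D ductal-like cells (5 of 10 with a UMI, and Kcnj8, Abcc9, Higd1b, Myh11 and Des at 0), against 40.9 CPM in S2D (7 of 10, with Pdgfrb, Kcnj8 and Higd1b at 0), most of it Rgs5 at 317 and 21.3 CPM. Fibroblast markers summed to 44.1 and 16.7 CPM (8 of 9 in each, with Pdgfra at 0), and the part of both cell types in these targets was not tested. Activators were among the 4 of 14 latency genes that were higher: Thbs1, whose protein frees latent TGF-beta (1082 and 302 UMIs; 2.66, 2.47 to 2.84), and the integrin genes Itgav (1.47) and Itgb6 (1.09). Itgb8 (-1.0) and Ltbp4 (-1.497) were lower. Pmepa1 was the 1 of 9 feedback genes that was higher (1.95), a share near the 8.59% of all genes. In macrophage-like cells Thbs1 was higher too, with 27028 UMIs in C2D and 195 in S2D (1.68, 1.48 to 1.90), and so was Gdf15 (23633 and 39; 3.81, 3.36 to 4.31).

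At 6 weeks 5 of 25 targets were higher in C6W fibroblast-like cells and none lower, with a median of 0.10 against 0.01 over all genes, of which 2.03% were higher and 1.65% lower. They included Tnc (283 UMIs in C6W and 74 in S6W; 1.62, 1.24 to 2.01), Postn (1.56) and Timp1 (1.13). Pmepa1 was also higher (1243 and 479; 1.06, 0.91 to 1.21), and fell below 2-fold on plain CPM (0.93). The 14 cells of cluster 5 gave 237 of the 996 Postn UMIs. Fmod, higher at 2 days, was lower at 6 weeks (86 and 145; -1.07, -1.47 to -0.68), as was Gdf15 (-1.80). In macrophage-like cells Furin, the protease that cuts the TGF-beta propeptide, was higher (552 and 194; 1.34, 1.11 to 1.59), and Gdf15 (44 and 391; -3.32) and Bmp2 (22 and 116; -2.56) were lower. In ductal-like cells 4 of 12 targets were higher, where 2.53% of all genes were, and Thbs1 lay at the threshold (468 and 92; 1.0, 0.68 to 1.34), just under it on plain CPM (0.99).

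The genes most like each member were found by Pearson's r of log2(CPM + 1) over 32 class and library pairs, among 10488 genes. These pairs share libraries and depth, so r is a description. Ltbp2 was most like Tagln (r = 0.78), Acta2 (0.74) and Mmp11 (0.73), and Tgfb3 most like Sfrp1 (0.88), Adamts15 (0.87) and Pygo1 (0.865). Tgfb1 was closest to Crlf2 (0.96), Ankrd13a (0.96) and Ubash3b (0.95), Tgfb2 to Casp12 (0.98), Fam124a and Cc2d2a (both 0.97), and Inhba to Azin2 (0.81), Dcakd (0.81) and Fzd1 (0.80). Among the receptors, Tgfbr1 was closest to Ralgds (0.94), Tgfbr2 to Nin (0.93) and Tgfbr3 to Tns2 (0.94). Tgfbi was closest to Rab7b (0.95), Arhgap22 (0.95) and Rnf150 (0.93).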

How the data were processed

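Single-cell RNA was measured in 4 libraries, 1 per group. The deposited matrices hold counts of UMIs per gene and cell barcode, which the authors made with Cell Ranger 3.0.2 on mm10, per the submitters' processing notes. The deposited gene and barcode lists give the names of rows and columns, and groups follow the labels. Cells needed 500 UMIs, 200 genes and at most 20% mitochondrial UMIs, and Scrublet doublet calls were left out. The 12703 cells were clustered with scanpy 1.11.5 and leidenalg 0.10.2 under Python 3.11.15 (numpy 2.4.6, scipy 1.17.1, pandas 2.3.3; figures with matplotlib 3.10.9), from 2000 variable genes without the members and listed pathway genes, 40 principal components, 15 neighbours and resolution 1. Clusters were named from marker lists. UMIs were summed per class of at least 50 cells and library; levels within clusters needed 20 cells, and mural-like cells, under 50, are given as levels only.

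Ratios were scaled by TMM, written in Python, and tested on simulated data. Intervals are exact at 95%, and shares of all genes leave out 43 digestive enzyme genes except in acinar-like cells. A ratio counted as higher or lower at 2-fold with at least 20 UMIs over both libraries. No test between conditions was possible with 1 library per group. The 9 members, the pathway lists and the marker lists were chosen with earlier results of these data known. All 9 members are named; other pathway genes are named as the up to 3 highest and 3 lowest ratios per list past 2-fold with at least 100 UMIs (1 is not reported here), and similar genes as the 3 highest r among genes with at least 500 UMIs. Positions are those of GENCODE vM21 (GRCm38), matched by Ensembl ID, and upstream letters those of RefSeq, with an entry for 7 members and none for Tgfb3 and Tgfbr3. Alternatives changed the scaling (plain CPM, totals without digestive enzymes, DESeq2 size factors), the UMI minimum, thinning, cell filters, doublets, clustering, free RNA and the 6-week control. Leaving out the cell with the most UMIs of a member was added after seeing the data.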

Additional observations from a re-analysis of the deposited data

Results flagged for a closer look

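A pair of genes had 2-day and 6-week ratios of opposite sign in the same class, with counting intervals that left out 0 in both comparisons. Other gene and class pairs changed sign too, but with an interval that included 0 at 2 days or at 6 weeks. Tgfb1 in fibroblast-like cells, at 1.86 and -0.20 (-0.43 to 0.04 at 6 weeks), is an example. In ductal-like cells the log2 ratio of Tgfb1 was 1.21 for C2D over S2D and -0.89 for C6W over S6W. In fibroblast-like cells the log2 ratio of Tgfbr3 was -1.14 for C2D over S2D and 0.11 for C6W over S6W. Both were picked because the signs differ and neither interval includes 0. Each comparison has a single library per group, and the difference between the comparisons was not tested. With S2D as the control the C6W ratio of Tgfbr3 was -0.21, the same sign as at 2 days.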

How the results depend on the processing

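No paired analysis was possible because each group had 1 library. No called ratio changed sign under the alternatives run. Counts of members past 2-fold changed as follows at 2 days. In fibroblast-like cells the count of 6 became 3 without clusters of 1 library. In ductal-like cells the count of 5 became 3 at 100 UMIs and 1 with cells thinned to 1000 UMIs. In macrophage-like cells the count of 2 became 0 when thinned, and 1 with doublets kept, without clusters of 1 library or with free RNA subtracted. In acinar-like cells the count of 2 became 4 on plain CPM or with no minimum, and 0 at 100 UMIs, thinned or with free RNA subtracted. Counts of 0 became 2 (no minimum or thinned) and 3 (doublets kept) in dendritic-like cells, 1 (thinned) in NK-like cells and 1 (no minimum or resolution 2) in T-like cells. At 6 weeks the count of 1 in fibroblast-like cells became 0 at 100 UMIs, thinned or without clusters of 1 library. Counts of 0 became 1 with no minimum in B-like cells, 1 with no minimum or free RNA subtracted in ductal-like cells and 2 with no minimum in acinar-like cells. The causes were not tested, beyond the fewer genes that a higher minimum or thinning leaves to compare. The other 160 counts stayed within 1.5 times. Of the recomputed log2 ratios, 64 lay outside the counting interval of the reported value and 764 inside it. Of the recomputed CPM levels, 3 had moved and 99 had not, and all 34 shares of cells with a UMI moved when cells were thinned. Without the cell with the most UMIs of the member, 15 of 17 called ratios stayed past 2-fold, and Tgfbi in C2D ductal-like cells and Ltbp2 in C6W fibroblast-like cells had too few UMIs left. Not run were NK-like cells at 10% mitochondrial UMIs, and acinar-like and ductal-like cells without clusters of 1 library, since too few cells were left. Depth limits Ltbp2 outside C2D, Tgfbi in ductal-like and acinar-like cells, and Inhba and Tgfb3 in macrophage-like cells of all libraries but C2D.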
